A study of Mus musculus with 9 samples.

Results

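Genes that the transcription factor ATF4 is known to switch on, 10 of the 46517 genes of the deposited table, were followed through 9 libraries of RNA from aged C57BL/6 mice. They are Cth, Asns, Phgdh, Psat1, Psph, Shmt2, Mthfd2, Trib3, Slc7a11 and Chac1, found by their symbols. The set was chosen by the FPKM of Cth, which were higher in lymph nodes than in spleens of transgenic mice, so that comparison is given below as a description, with no test. The libraries were 2 lymph nodes of plckGAPDH mice (animals 455 and 508), 4 spleens of plckGAPDH mice (animals 343, 508 and 547 and a spleen whose column carries no animal number, called the unnumbered spleen) and 3 wild-type spleens (1, 4 and 5). All mice were older than 18 months. In plckGAPDH mice the Lck promoter, active in cells of the T lineage, drives an added Gapdh gene, and the labels describe the mice as tumour-developing. The labels' protocols name splenocytes as the source of the RNA, although the tissue label of 2 libraries is lymph node. Whole suspensions hold many cell types. No lymph node of a wild-type mouse was analysed here. Values are FPKM, fragments scaled by transcript length and by the fragments of the library.

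ATF4 is made when cells lack amino acids or load their secretory pathway, through phosphorylation of the translation factor eIF2. It then switches on enzymes that make serine, glycine, asparagine and cysteine, amino acid transporters and genes that end or extend the stress response. Dividing lymphocytes use serine and folate-bound carbon units to make nucleotides, and plasma cells, which secrete antibody, rely on amino acid supply.

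ATF4 binds, with a C/EBP partner, a composite element whose core reads TGATGNAA. The promoter windows of RefSeq (build GRCm38.p6, 250 bases before to 50 after each start) were searched for it on both strands, for all genes but Cth. It was found in 4 of the 9 genes, and in 3.97% of the 32851 windows of the genome. The stretches that hold it are shown because these 4 genes had very unlike levels, as given below. They read in the direction of the gene, the 8 bases of the match are in capitals, and a match on the opposite strand appears as its reverse complement.
Asns, chr6:7693210-7693269, minus strand: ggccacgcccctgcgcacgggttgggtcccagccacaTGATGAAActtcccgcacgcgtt
Chac1, chr2:119351022-119351101, plus strand: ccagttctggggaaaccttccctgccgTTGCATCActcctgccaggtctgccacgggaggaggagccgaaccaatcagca
Slc7a11, chr3:50443614-50443693, minus strand: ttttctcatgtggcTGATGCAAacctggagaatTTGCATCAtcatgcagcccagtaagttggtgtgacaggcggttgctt
Trib3, chr2:152344031-152344054, minus strand: gctcaggtTTACATCAgccgggcg
The match began 23 bases before the start in Asns and 193 before it in Chac1. Slc7a11 held a pair of matches, 66 and 47 bases before the start, and the match of Trib3 lay at base 15 of the RefSeq transcript. The windows of Phgdh, Psat1, Psph, Shmt2 and Mthfd2 held none of these letters in this order.

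The libraries differed in content, which touches every value below. Mitochondrial ribosomal RNA made up 9.68% to 31.8% of the FPKM in plckGAPDH spleens, lowest in spleen 508 and highest in spleen 343. It made up 30.1% and 11.2% in lymph nodes 455 and 508, and 21.6%, 39.3% and 10.8% in wild-type spleens 1, 4 and 5. The FPKM summed to 2.34e6 in spleen 508 and 2.67e6 in lymph node 508, against 1.03e6 to 1.69e6 in the other libraries. Estimated depth, in units of 1e6 fragments, was 23.7 to 34.4 per library. For a transcript of 2000 bases, 1 fragment was then worth 0.0159 to 0.0230 FPKM. Wild-type spleen 5 had a summed level of 74168 FPKM over 7 erythroid genes, against 1.81 to 2149 FPKM in the other libraries. It had 0.09 FPKM of Xist and 30.5 FPKM of the Y-linked Eif2s3y, while the other 8 libraries had 31.2 to 59.7 FPKM of Xist and Eif2s3y was listed at 0. Wild-type spleen 4 was low in neutrophil RNA, with a summed level of 3.83 FPKM over 7 neutrophil genes, against 468 and 3016 in wild-type spleens 5 and 1. The lymphocyte lists were present in all libraries. The 7 B cell genes summed to 297 and 381 FPKM in lymph nodes 455 and 508, 493 to 934 FPKM in plckGAPDH spleens and 343 to 1778 FPKM in wild-type spleens, and 7 T cell genes to 197 and 96.5, 114 to 944 and 258 to 477 FPKM in the same groups. Gapdh, the gene of the transgene, lay at 554 and 312 FPKM in lymph nodes 455 and 508 and at 430 to 894 FPKM in plckGAPDH spleens, against 299 to 348 FPKM in wild-type spleens. In bulk RNA, fewer cells of a type and less RNA per cell cannot be told apart.

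**Figure D1:**
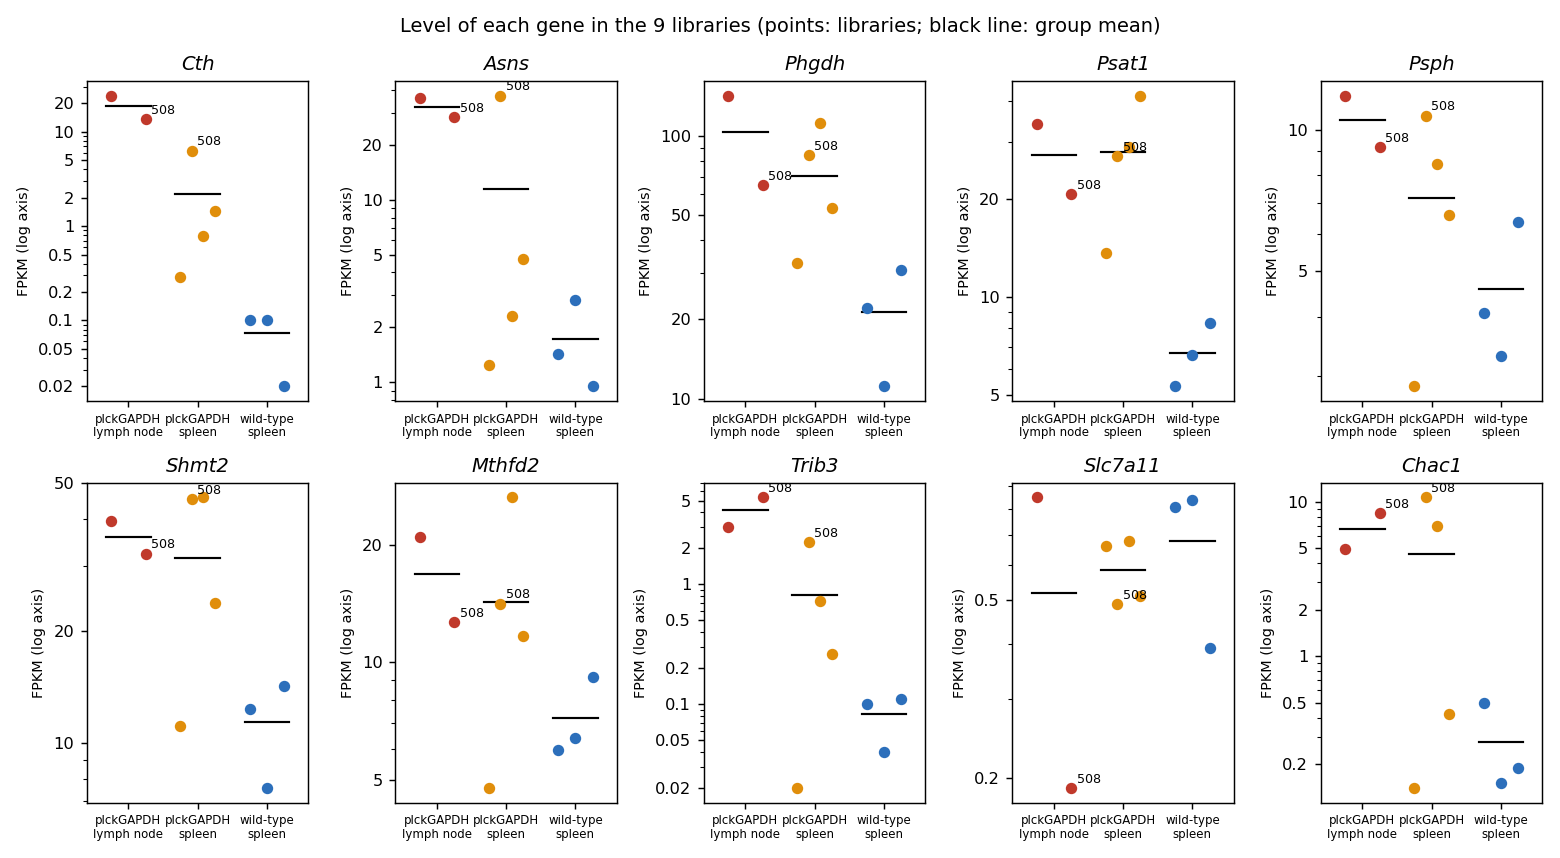
FPKM of each of the 10 genes (log axes with their own ranges) in plckGAPDH lymph nodes, plckGAPDH spleens and wild-type spleens; points are libraries, black lines group means, and libraries of animal 508 are marked. Cth lies highest in the 2 lymph nodes, and Psat1, Phgdh and Cth of every plckGAPDH spleen lie above every wild-type spleen.

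Cth, cystathionine gamma-lyase, makes cysteine in the last step of transsulfuration (chromosome 3, 157894248 to 157925077). It was at 24.25 FPKM in lymph node 455 and 13.55 FPKM in lymph node 508, against 6.30, 1.46, 0.79 and 0.29 FPKM in plckGAPDH spleens 508, unnumbered, 547 and 343. In wild-type spleens it was at 0.10, 0.10 and 0.02 FPKM, values worth only a few fragments. Both lymph nodes therefore lay above every plckGAPDH spleen, and every plckGAPDH spleen above every wild-type spleen. The log2 difference of means on the log2(FPKM + 1) scale was 2.92 between lymph nodes and plckGAPDH spleens, the 43rd highest of 13682 genes at 1 FPKM or more in at least 2 of the 9 libraries. The median of those genes was -0.59, so the lymph nodes were lower over genes in general and higher for Cth. Between plckGAPDH and wild-type spleens the difference was 1.24. Cth reached 1 FPKM in 2 of the 7 spleens, below the filter of the test, which asked for 3.

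Cbs, which makes the substrate of Cth from homocysteine, was low throughout. It was at 1.08 and 0.38 FPKM in lymph nodes 455 and 508, against 0.07 to 0.27 FPKM in plckGAPDH spleens and 0.02 to 0.12 FPKM in wild-type spleens. It was 1 of 14 genes of methionine, cysteine and glutathione metabolism in which both lymph nodes lay above every plckGAPDH spleen, and it was chosen after its values were seen.

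Asns, asparagine synthetase (chromosome 6, 7675169 to 7693254), had the pattern most like that of Cth. Likeness was measured as the root-mean-square difference of log2(FPKM + 1) values centred on each gene's own mean over the 9 libraries, among 3177 genes at 1 FPKM or more in at least 2 libraries whose range was at least 0.5 of that of Cth. Asns had the smallest difference, 0.53. The next were 1810009J06Rik at 0.56, Snora20, a small nucleolar RNA, at 0.63, and Gm7336 and Gm10359, both at 0.67. Snora20, Gm7336 and Gm10359 were at 10.35 to 20.28 FPKM in both lymph nodes and spleen 508 and listed at 0 in the other libraries. 1810009J06Rik was at 2.55 to 7.67 FPKM in the lymph nodes and spleen 508 and at most 0.11 FPKM elsewhere. What set these libraries apart was not tested. Gm7336 and Gm10359 had identical values in all 9 libraries and were not told apart. Trib3 ranked 16th and Chac1 66th in likeness.

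Asns was at 36.05 and 28.40 FPKM in lymph nodes 455 and 508. In plckGAPDH spleens it was at 37.28 FPKM in spleen 508, against 4.76, 2.32 and 1.25 FPKM in the unnumbered spleen, 547 and 343. Wild-type spleens held 1.43, 2.81 and 0.95 FPKM. Spleen 508 thus stood with the lymph nodes, at 7.83 times the next plckGAPDH spleen, while spleens 547 and 343 lay within the range of the wild-type spleens. The difference between the spleen groups was 1.28 on the log2 scale (SE 0.77, limma FDR 0.766), and 0.42 without spleen 508.

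**Figure D2:**
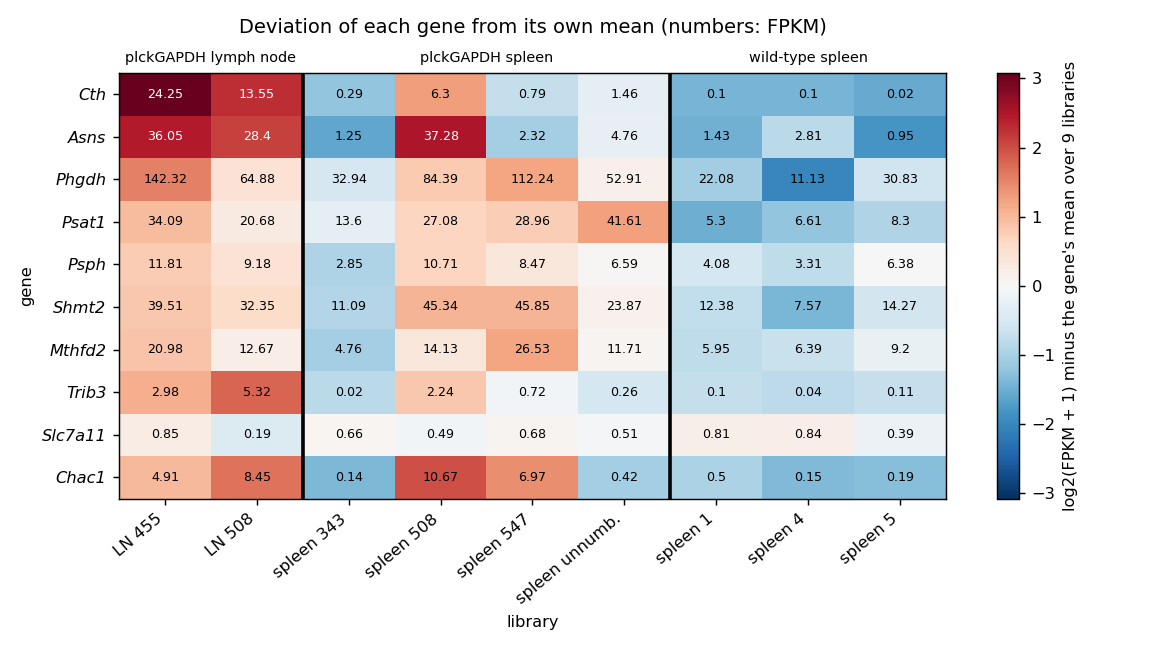
Deviation of log2(FPKM + 1) of each gene from its own mean over the 9 libraries (colour), with the FPKM printed in each cell; columns are libraries by group. Cth and Asns share their highest cells in both lymph nodes and spleen 508, while spleen 343 has low cells for both.

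The serine pathway starts with Phgdh, which draws serine synthesis off glycolysis, and goes on through Psat1 and Psph. Phgdh (chromosome 3, 98313170 to 98339990) was at 142 and 64.9 FPKM in lymph nodes 455 and 508, the highest level of the 10 genes in every library. In plckGAPDH spleens 547, 508, unnumbered and 343 it was at 112, 84.4, 52.9 and 32.9 FPKM, against 22.1, 11.1 and 30.8 FPKM in wild-type spleens 1, 4 and 5. The groups of spleens did not overlap, but spleen 343 and wild-type spleen 5 lay close together. The 4 plckGAPDH spleens averaged 70.6 ± 34.9 FPKM (SD, n = 4) and the 3 wild-type spleens averaged 21.3 ± 9.87 FPKM (SD, n = 3). The log2 difference was 1.65 (SE 0.51), which did not pass the test (limma FDR 0.231).

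Psat1, the aminotransferase of the second step (chromosome 19, 15904678 to 15947337), came nearest to the threshold. It was at 34.1 and 20.7 FPKM in lymph nodes 455 and 508. In the plckGAPDH spleens it was at 41.6 (unnumbered), 29.0 (547), 27.1 (508) and 13.6 FPKM (343), against 5.30, 6.61 and 8.30 FPKM in wild-type spleens 1, 4 and 5. Every plckGAPDH spleen lay above every wild-type spleen, and the lymph nodes lay within the range of the plckGAPDH spleens. Psat1 averaged 27.8 ± 11.5 FPKM (SD, n = 4) in the plckGAPDH spleens, against an average of 6.74 ± 1.5 FPKM (SD, n = 3) in the wild-type spleens. The log2 difference was 1.82 (SE 0.43, limma FDR 0.0654). Without spleen 343 the difference was 2.11 and the limma FDR 0.0185. Without wild-type spleen 1 the limma FDR was 0.312, the highest with 1 spleen left out. An exact two-sided permutation test over the 35 splits of the 7 spleens gave p = 0.0571 for Psat1 and p = 0.0571 for Phgdh, where the smallest possible p is 0.0286. Adjusted over all genes tested, the exact p was 0.866 for both, where the smallest of any gene was 0.82.

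Psph, the phosphatase that releases serine (chromosome 5, 129765558 to 129787449), differed less. It was at 11.8 and 9.18 FPKM in the lymph nodes, at 2.85 to 10.7 FPKM in plckGAPDH spleens and at 3.31 to 6.38 FPKM in wild-type spleens. Spleen 343 held the lowest value of the 9 libraries. The groups of spleens overlapped, with a log2 difference of 0.47 (SE 0.43, limma FDR 0.914). Psph shares 452 exon bases with Cct6a on the other strand. The sources used here do not say whether counting used strand.

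Shmt2 and Mthfd2 work in mitochondria, where Shmt2 splits serine into glycine and a carbon unit and Mthfd2 oxidises the folate that carries it. Shmt2 (chromosome 10, 127517123 to 127522444) was at 39.5 and 32.4 FPKM in lymph nodes 455 and 508. It was at 45.9, 45.3, 23.9 and 11.1 FPKM in plckGAPDH spleens 547, 508, unnumbered and 343, against 12.4, 7.57 and 14.3 FPKM in wild-type spleens 1, 4 and 5. Of the 4 plckGAPDH spleens, 343 lay in the wild-type range. The log2 difference was 1.24 (SE 0.51, limma FDR 0.471). Mthfd2 (chromosome 6, 83305691 to 83325908) was at 21.0 and 12.7 FPKM in the lymph nodes, at 4.76 to 26.5 FPKM in plckGAPDH spleens and at 5.95 to 9.20 FPKM in wild-type spleens. Its groups overlapped through spleen 343, with a log2 difference of 0.71 (SE 0.49, limma FDR 0.829). Shmt2 shares 32 exon bases with Ndufa4l2 on the other strand.

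Trib3, a pseudokinase that ATF4 induces and that restrains the response (chromosome 2, 152337422 to 152344032), was the other gene with both lymph nodes above every plckGAPDH spleen. It was at 5.32 FPKM in lymph node 508 and 2.98 FPKM in lymph node 455, against 2.24, 0.72, 0.26 and 0.02 FPKM in plckGAPDH spleens 508, 547, unnumbered and 343. Wild-type spleens held 0.10, 0.04 and 0.11 FPKM. Spleen 343 was at about the value of 1 fragment, below all wild-type spleens.

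Chac1, which breaks down glutathione and is induced late in the stress response (chromosome 2, 119351229 to 119354381), split the plckGAPDH spleens. It was at 10.67 and 6.97 FPKM in spleens 508 and 547, and at 0.42 and 0.14 FPKM in the unnumbered spleen and spleen 343. The lymph nodes held 8.45 FPKM (508) and 4.91 FPKM (455), and wild-type spleens held 0.50, 0.15 and 0.19 FPKM. The lower pair of plckGAPDH spleens lay within the wild-type range or just under it. Over all 4 spleens the highest value was 76.2 times the lowest.

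Slc7a11, the cystine importer xCT (chromosome 3, 49892526 to 50443614), was low in all libraries and reached 1 FPKM in none. It was at 0.85 and 0.19 FPKM in lymph nodes 455 and 508, at 0.49 to 0.68 FPKM in plckGAPDH spleens and at 0.39 to 0.84 FPKM in wild-type spleens. Its groups overlapped, and it was the only one of the 10 with a negative difference between the spleens (-0.07 on the log2 scale). A pair of TGATGCAA matches in its promoter, shown above, thus stood beside levels under those of the other genes in both lymph nodes.

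Over the 10 genes, 9 had a positive difference between plckGAPDH and wild-type spleens, with a median of 1.24 on the log2(FPKM + 1) scale, beside 0.02 over the 12607 genes tested. The median was 0.69 without spleen 508. Under 2 other scalings of the columns the same 9 genes were positive. The filter of 1 FPKM in 3 spleens left 6 of the 10 to be tested. Of these 6, 0 were called with limma at a false discovery rate under 0.05, as 1.44% of all genes tested were, or 0.206% as higher. At an unadjusted limma p under 0.05, 3 of the 6 were higher, beside 4.18% of all genes tested. With the exact test 0 of the 6 passed after adjustment, as did 0 of all genes tested. With 35 splits no exact p is under 0.0286, and the smallest after adjustment was 0.82, so that count does not bear on these genes. Every plckGAPDH spleen lay above every wild-type spleen in 3 of the 10 genes (Cth, Phgdh and Psat1), as in 3.35% of the 13682 genes at 1 FPKM or more in 2 of the 9 libraries, which include all of the 10 but Slc7a11. The same held for 3.39% of the 12607 genes tested, and 3.88% of these had every plckGAPDH spleen below every wild-type spleen. Cth was the gene that chose the set, and it reached 1 FPKM in plckGAPDH libraries only. These shares are therefore no measure for Cth. On simulated spleens with 12607 genes, 0% of 200 genes with a log2 change of 1 and 42% of 200 with a log2 change of 2 were recovered.

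The plckGAPDH libraries differed in how many of the genes stood above the wild-type spleens. Spleen 508 lay above every wild-type spleen in 9 of the 10 genes, beside 14.8% of the 13682 genes. Spleen 547 did so in 8 genes, beside 43.9%, and the unnumbered spleen in 8 genes, beside 33.1%. In spleen 343 it was 3 genes, beside 17.2%. Lymph node 455 lay above every wild-type spleen in all 10 genes, beside 12.8%, and lymph node 508 in 9 genes, beside 8.81%. For Slc7a11, which is not among the 13682 genes, lymph node 455 was nearly level with wild-type spleen 4, at 0.85 against 0.84 FPKM. Genes that move together are not separate events, and the lymph node counts also hold the difference between tissues. Cth, Trib3 and Chac1 reached 1 FPKM in plckGAPDH libraries only, so they entered the 13682 genes through libraries counted here. Cth was also the gene that chose the set. For these genes the shares are no measure.

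**Figure D3:**
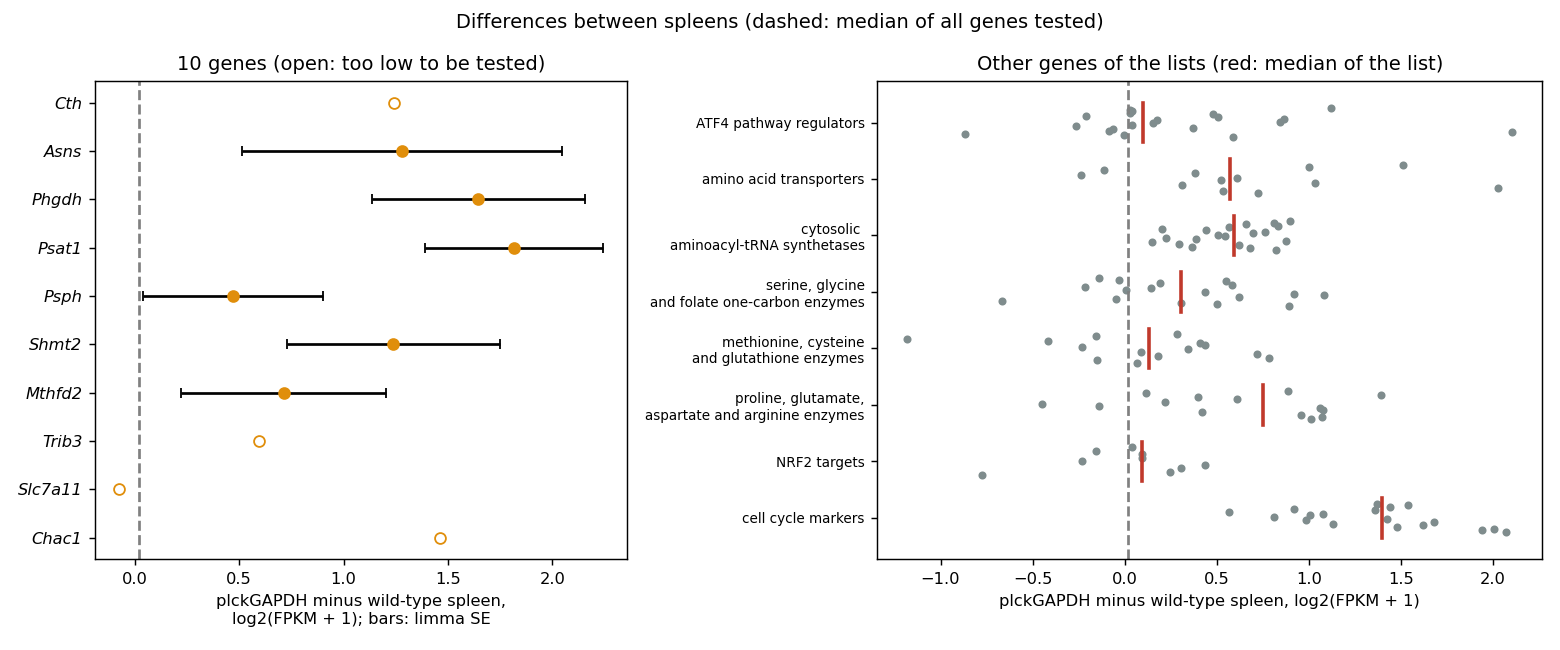
Left, plckGAPDH minus wild-type spleen on the log2(FPKM + 1) scale for the 10 genes, with limma SE, open points for genes too low to be tested. Right, the same for other genes of 8 lists, with each list's median in red; the dashed line is the median of all genes tested, 0.02. The synthetases and the cell cycle genes lie to the right of 0 throughout.

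The regulators of the pathway were examined next, from lists made with earlier results of these data known. Atf4 itself was at 66.3 and 67.8 FPKM in lymph nodes 455 and 508, against 119, 81.8, 43.3 and 28.4 FPKM in plckGAPDH spleens 547, 508, unnumbered and 343. In wild-type spleens it was at 44.4, 21.4 and 61.3 FPKM, so the groups of spleens overlapped (log2 difference 0.59, SE 0.55, limma FDR 0.916). Ddit3, the stress factor CHOP, was at 5.01 to 15.7 FPKM in plckGAPDH spleens and 7.97 to 11.4 FPKM in wild-type spleens. Its difference was -0.01 (limma FDR 0.998) and changed sign in 6 alternatives. Atf5, a relative of ATF4, had the largest difference of the list. It was at 21.7, 17.3, 3.62 and 1.88 FPKM in plckGAPDH spleens 508, 547, 343 and unnumbered, against 0.80 to 1.19 FPKM in wild-type spleens, with no overlap (2.10, SE 0.64, limma FDR 0.210). Without the unnumbered spleen its limma FDR was 0.0209, and without wild-type spleen 5 it was 0.589. Atf3, another stress factor, had the lowest difference at -0.87 (limma FDR 0.50). Of the 17 regulators tested, 0 were called with limma and 3, among them Atf3 as lower, had an unadjusted p under 0.05, beside 8.85% of all genes tested in either direction. Over all 20 regulators, 14 had positive differences, with a median of 0.10, or 11 with scaling that leaves out abundant RNA.

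Amino acid transporters and tRNA synthetases had mostly positive differences between the spleens, and none of them was called. Slc7a5, which imports large neutral amino acids, was at 68.7, 26.0, 8.95 and 2.54 FPKM in spleens 508, 547, unnumbered and 343, against 2.73, 2.22 and 4.06 FPKM in wild-type spleens 1, 4 and 5. Spleen 343 lay within the wild-type range, and the difference was 2.03 (SE 0.78, limma FDR 0.412). The limma FDR of Slc7a5 was 0.0252 without spleen 343 and 0.741 without wild-type spleen 5. Slc38a1, a glutamine importer, had the lowest difference of the transporters, at -0.24 (limma FDR 0.982). Of the 12 transporters, 10 had positive differences, with a median of 0.57. All 20 cytosolic aminoacyl-tRNA synthetases, which load tRNAs with amino acids, had positive differences, with a median of 0.60 and a range from Farsb at 0.15 to Yars at 0.90. With scaling that leaves out abundant RNA, which moved the median of all genes to -0.18, Farsb (-0.09), Iars and Rars turned negative and 17 synthetases stayed positive. With limma, 0 of 10 transporters and 0 of 20 synthetases tested were called, and 2 transporters and 1 synthetase had an unadjusted p under 0.05, beside the same 8.85% of all genes.

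In the neighbouring amino acid pathways, 0 genes were called with limma over all 7 spleens. Of 17 other genes of serine, glycine and folate metabolism, 12 had positive differences (median 0.31), or 10 with scaling that leaves out abundant RNA. Mthfd2l, a relative of Mthfd2, was lowest at -0.67 (limma FDR 0.546). Every plckGAPDH spleen, at 0.73 to 1.32 FPKM, lay below every wild-type spleen, at 1.60 to 2.43 FPKM, as in 3.88% of all genes tested. Of 14 enzymes of proline, glutamate, aspartate and arginine, 12 had positive differences (median 0.75), or 10 with that scaling. They were led by Bcat1, which starts the breakdown of branched-chain amino acids, at 1.39 (SE 0.52, limma FDR 0.388). Without spleen 343 the difference of Bcat1 was 1.95 and its limma FDR 0.0116, and without wild-type spleen 5 its limma FDR was 0.757. Bcat1 was at 0.42 to 6.55 FPKM in plckGAPDH spleens, lowest in spleen 343, and at 0.53 to 0.88 FPKM in wild-type spleens. Glul, glutamine synthetase, was at -0.45 (limma FDR 0.962). The 14 genes of methionine, cysteine and glutathione had a median of 0.13, from Ggt1 at -1.18 to Ahcy at 0.78. NRF2 is the oxidative stress factor that also acts on Slc7a11. The 9 other genes of its list, which include Nfe2l2, the gene of NRF2 itself, had a median of 0.09, with 6 positive. They ran from Nfe2l2 at -0.78 to Gclm at 0.43. With scaling that leaves out abundant RNA, 4 of these stayed positive. The counts at an unadjusted p under 0.05 were 2 of 14, 5 of 13, 1 of 12 and 0 of 7 tested, in that order of lists, beside 8.85% of all genes tested. They count both directions, with Mthfd2l and Ggt1 lower.

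Between lymph nodes and plckGAPDH spleens, which is the contrast that chose the genes, both lymph nodes lay above every plckGAPDH spleen in 2 of the 10 genes, Cth and Trib3, beside 0.49% of the 13682 genes. The differences of means were positive in 9 of the 10, with a median of 0.59, beside a median of -0.59 over all genes. That general shift depends on scaling. With median-of-ratios scaling, which moved the median of all genes to -0.01, both lymph nodes lay above every plckGAPDH spleen in 6 of the 10 genes, with Phgdh, Psat1, Psph and Mthfd2 added, beside 3.33% of all genes. Without spleen 508 the count was 4, with Asns and Psph added, beside 2.06% of all genes. Without lymph node 508, lymph node 455 alone lay above every plckGAPDH spleen in 5 genes, with Phgdh, Psph and Slc7a11 added, beside 5.37%. Among the genes of the amino acid, stress and cell cycle lists, both lymph nodes lay above every plckGAPDH spleen in Nupr1, a stress-induced chromatin protein, and in Cbs. Nupr1 was at 22.6 and 6.35 FPKM in lymph nodes 455 and 508, against 2.45 to 3.87 FPKM in plckGAPDH spleens and 4.34 FPKM at most in wild-type spleens, and it was chosen after its values were seen.

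Animal 508 gave both tissues, which allows a comparison within 1 mouse with no replicate. Its lymph node held more Cth and Trib3 than its spleen, at 2.15 and 2.38 times the spleen's FPKM. The other 8 genes were at 38.8% (Slc7a11) to 89.7% (Mthfd2) of the spleen's level. The median of 9868 genes at 1 FPKM or more in both was 69.9%, so 7 of these 8 lay above the general shift and Slc7a11 below it. With median-of-ratios scaling, which moved that median to 101%, 9 of the 10 genes were higher in the lymph node, all but Slc7a11.

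**Figure D4:**
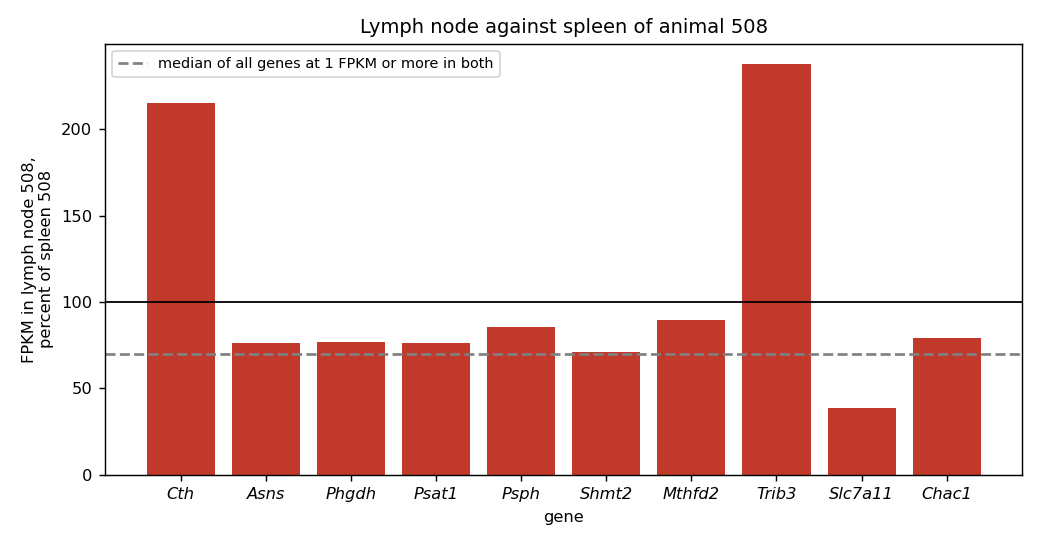
FPKM in the lymph node of animal 508 as percent of the FPKM in its spleen for the 10 genes; the solid line marks equal levels and the dashed line the median of all genes, 69.9%. Cth and Trib3 stand above 200%, while the other genes lie on the lower side of the line of equal levels.

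Plasma cell genes were set beside the levels of Asns and Cth. The summed level of 8 plasma cell genes was 2670 and 2430 FPKM in lymph nodes 455 and 508 and 4569 FPKM in plckGAPDH spleen 508, against 83.9 to 409 FPKM in the other plckGAPDH spleens and 231 to 351 FPKM in wild-type spleens. Jchain, which joins antibody units, was at 1886 and 1661 FPKM in the lymph nodes and 3472 FPKM in spleen 508, against 9.21 to 37.4 FPKM in the other plckGAPDH spleens and 132 to 220 FPKM in wild-type spleens. Sdc1, Mzb1 and Derl3 were also highest in these 3 libraries, but Xbp1, Prdm1, Irf4 and Tnfrsf17 were not. Tnfrsf17 was at 9.71 FPKM in spleen 547, against 5.49, 2.51 and 2.75 FPKM in lymph nodes 455 and 508 and spleen 508. Irf4 was at 71.9 FPKM in spleen 547, against 44.8 and 51.5 FPKM in lymph nodes 455 and 508. Both lymph nodes and spleen 508 were also the 3 libraries in which Asns and Cth were highest. Within these 3 libraries Asns followed the order of the plasma cell sum, highest in spleen 508 and lowest in lymph node 508. Cth did not, since it was lowest in spleen 508. None of the 8 plasma cell genes was at 0 in any library, and their part in the differences of Asns and Cth was not tested.

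The summed level of 18 cell cycle genes was 222 to 1096 FPKM in plckGAPDH spleens, highest in 547 and lowest in 343, against 175 to 217 FPKM in wild-type spleens. It was 352 and 182 FPKM in lymph nodes 455 and 508. All 18 had positive differences between the spleens, with a median of 1.40, from Pcna at 0.56 to Mki67 at 2.07 (SE 0.58, limma FDR 0.166). With limma 0 of the 18 were called, and 12 had an unadjusted p under 0.05, all as higher, beside 4.18% of all genes tested. Without spleen 343, Mki67 had a limma FDR of 0.0423, and without wild-type spleen 5 one of 0.72. Spleen 547 had the highest Shmt2 and Mthfd2 of the 9 libraries and spleen 343 the lowest Phgdh, Psat1, Psph, Shmt2 and Mthfd2 of the plckGAPDH spleens. Lymph node 508 held a cell cycle sum within the wild-type range and Phgdh and Psat1 above every wild-type spleen. The part of cycling cells in these differences was not tested.

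**Figure D5:**
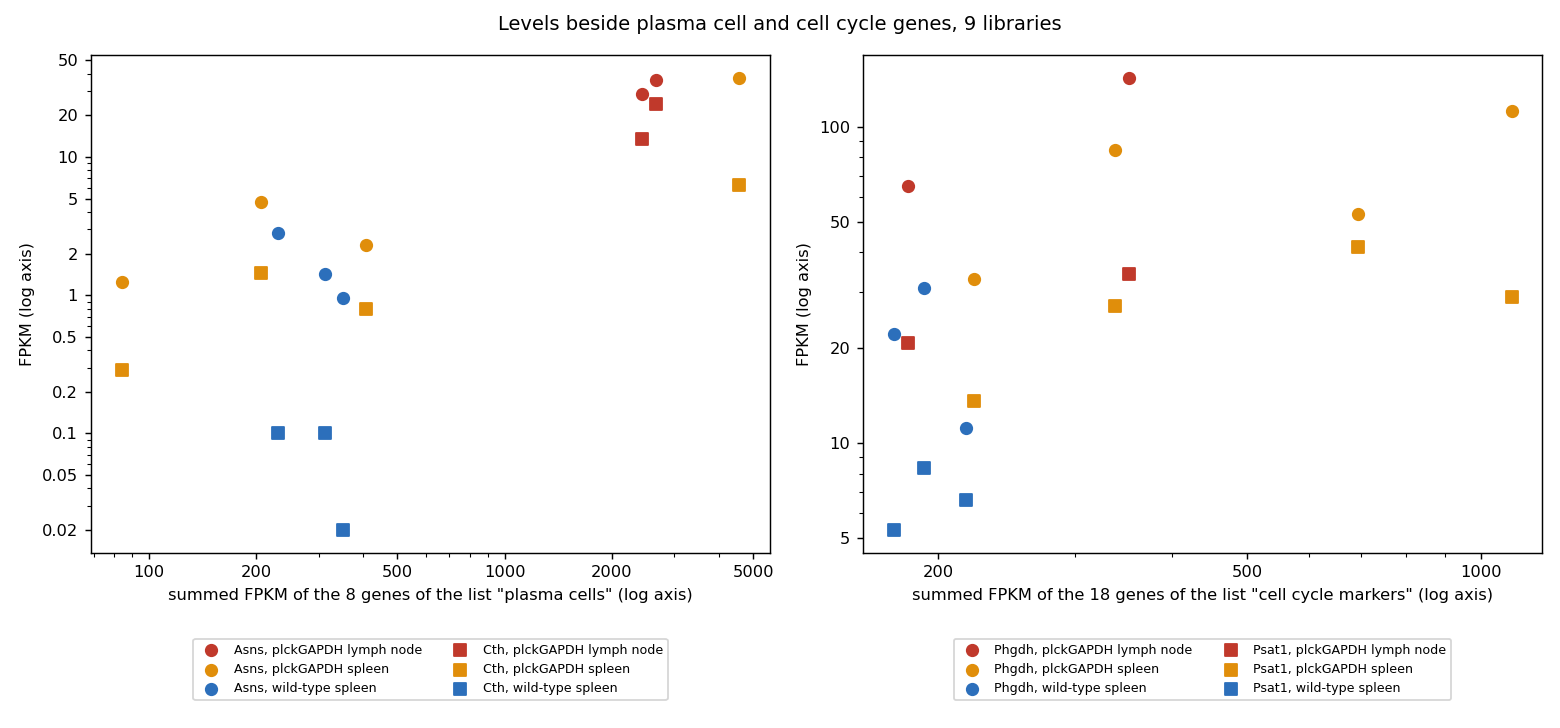
Left, FPKM of Asns (circles) and Cth (squares) against the summed FPKM of 8 plasma cell genes; right, Phgdh (circles) and Psat1 (squares) against the summed FPKM of 18 cell cycle genes, in 9 libraries on log axes. Both lymph nodes and spleen 508 stand apart on the left, at sums of 2430 to 4569 FPKM.

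Markers of other tissues were measured as well. The liver list of 4 genes summed to 0.36 and 1.15 FPKM in lymph nodes 455 and 508, against 0.07 to 0.26 FPKM in plckGAPDH spleens and 0.20 to 0.42 FPKM in wild-type spleens. Alb, the serum albumin that marks hepatocytes, was at 0.02 and 0.78 FPKM in lymph nodes 455 and 508, at 0 in all plckGAPDH spleens and at 0 to 0.02 FPKM in wild-type spleens. The 3 kidney genes summed to at most 0.15 FPKM in any library, with Kap listed at 0 throughout. Genes of stroma and fat were higher in lymph node 455 than in 508. The 8 stromal genes summed to 20.2 FPKM in lymph node 455 and 2.15 FPKM in lymph node 508, against 1.55 to 13.0 FPKM in plckGAPDH spleens and 2.41 to 5.79 FPKM in wild-type spleens. The 5 genes of fat summed to 12.9 and 0.62 FPKM in lymph nodes 455 and 508, against 1.0 to 1.55 FPKM in plckGAPDH spleens and 1.22 to 9.78 FPKM in wild-type spleens, highest in wild-type spleen 4. Most of the sum of the fat genes was Fabp4, at 11.6 FPKM in lymph node 455 and 9.67 FPKM in wild-type spleen 4. Adipoq was at 1.22 and 0.03 FPKM there, and Plin1, Lep and Cidec were at most 0.08 FPKM in any library. The 7 macrophage genes summed to 231 and 29.2 FPKM in lymph nodes 455 and 508. They summed to 50.8 to 160 FPKM in plckGAPDH spleens and 59.35 to 341 FPKM in wild-type spleens. Both lymph nodes also lay above every plckGAPDH spleen in Alb, in Serpina1a of the liver list and in Ccl21a, a stromal chemokine. Alb in lymph node 455 was near the value of 1 fragment of a 2000-base transcript, 0.0216 FPKM in that library. Serpina1a was at 0.21 and 0.05 FPKM in lymph nodes 455 and 508, against at most 0.04 FPKM in plckGAPDH spleens and 0.10 FPKM in wild-type spleens. Ccl21a was at 9.53 and 0.69 FPKM in lymph nodes 455 and 508, against 0 to 0.08 FPKM in plckGAPDH spleens and 0.49 to 2.32 FPKM in wild-type spleens. The part of these tissues and of macrophages in the differences of Cth was not tested.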

How the data were processed

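RNA of 9 libraries was analysed. The deposited table gives FPKM with 2 decimals, made by the authors. Per the submitters' processing notes, the tools were RSEM, Bowtie2 2.2.6, STAR 2.4.0a and featureCounts from Subread 1.5.0-p3, and the build was mm10. Which of these made the FPKM is not given in the sources used. Libraries came from a stranded total RNA kit, per the labels' protocols. FPKM depend on all other RNA of a library, so alternatives rescaled the columns. Depth was estimated from low FPKM of genes with 1 annotated transcript (GENCODE M21, GRCm38), of which 80.9% to 85.4% lay at whole fragments within 1% and the rounding, against 26.5% to 33.3% by chance. On 3 simulated libraries the error was at most 0.942%. Identical values made up at most 0.257% in any of 36 library pairs.

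Values of the 7 spleens, as log2(FPKM + 1), entered limma 3.58.1 (R 4.3.3; trend on mean level) for genes at 1 FPKM or more in at least 3. Benjamini-Hochberg adjustment ran over all 12607 genes, and a false discovery rate (FDR) under 0.05 was called. Fold changes on this scale understate changes of low genes. No count test was run, since the table holds no counts. The lymph nodes were described only. A spleen title with its own number matched no column, and the unnumbered spleen was kept as a separate sample. Nothing says that samples are separate animals beyond their numbers, so p-values reflect only the spread of these samples, which may be technical. All 10 genes are named, and from each list the genes with the largest and the smallest difference, with Atf4 and Ddit3. The result of 1 gene that this rule names is not reported here. Genes and lists were chosen with earlier results of these data known. Alternatives changed the pseudocount, the low-value filter, the column scaling, the trend, the sample weights and the libraries or genes entered, and the fits were tested on simulated data.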

Additional observations from a re-analysis of the deposited data

Results flagged for a closer look

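Asns in the plckGAPDH spleens was set apart by a single sample. Spleen 508 held 37.28 FPKM. On the FPKM scale the gap to the next spleen was 0.903 of the range of the 4 spleens, above the critical value of 0.829 for 4 samples. The log2(FPKM + 1) scale of the fits, on which a high value stands less far off, was not used for this check. Chance sets apart about 1 group in 20. Of 28 genes looked at, 1 was set apart. For Cth the same share was 0.805, with the same spleen highest.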

How the results depend on the processing

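Calls between the spleens depended on sample weights and single libraries, and the cause was not tested. The estimate of the sample quality weights stopped before convergence and gave wild-type spleen 1 a weight of 24.8. With these weights, 2 of the 10 genes (Phgdh and Psat1) and 28 list genes were called. Over all genes 1863 were then called, beside 181 of 12607 without weights. Leaving out 1 spleen at a time gave 0 to 1 called of the 10 genes, the call being Psat1 without spleen 343, and 0 to 7 list genes. Over all genes these fits called 72 to 265, the most without spleen 343, which also gave the 7. The counts of the 10 genes and of list genes were 0 with the other alternatives. The median of the 10 genes stayed positive, at 0.69 to 1.61 over the fits that leave out 1 spleen and at 1.15 without both wild-type spleens 4 and 5, an alternative chosen after seeing the data. The count of genes with both lymph nodes above every plckGAPDH spleen was 6 with median-of-ratios scaling and 2 to 5 with 1 library left out. The difference of Cth was 2.52 to 3.43 with 1 library left out. Some list genes near 0 turned sign. Ddit3 was at 0.028 with median-of-ratios scaling, 0.18 with weights, 0.18 without wild-type spleens 4 and 5 and -0.25 to 0.25 with 1 library left out. Glul was at 0.21, 0.042 and -0.70 to 0.051 with weights, without those 2 spleens and with 1 left out. Farsb was at -0.091 with scaling that leaves out abundant RNA and -0.13 to 0.40 with 1 left out. Gclm ran from -0.063 to 1.21 and Slc38a1 from -0.54 to 0.021 with 1 left out. No paired analysis was possible because the spleen groups share no animal number and lymph nodes and plckGAPDH spleens share 1. Depth limits Cth and Trib3 in wild-type spleens, where levels were a few fragments.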
